A study of Homo sapiens with 8 samples.

Results

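Integrins, laminins and other basement membrane genes, with the linkers that tie integrins to the cytoskeleton, were followed through 8 RNA-seq libraries of human prostate cancer cell lines. The set was a list of 39 genes given by symbol, and all 39 were found among the 57905 genes of the deposited table. It held 17 integrin chains, 10 laminin chains, 7 other matrix genes (TNC, FN1, COL4A1, COL4A2, NID1, HSPG2 and AGRN) and 5 intracellular linkers (DST, PLEC, TLN1, VCL and ILK).

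EnzaR is a prostate cancer line labelled as resistant to the androgen receptor antagonist enzalutamide, and it was kept in 10 uM of the drug. EnzaR cells received either siNC, a control siRNA, or siYAP1, an siRNA against the transcriptional coactivator YAP1, both at 40 nM for 48 h, with 2 libraries each. LNCaP, an androgen-responsive prostate cancer line labelled as enzalutamide-sensitive, was grown without the drug, and no siRNA is named for it. For 48 h it received a vehicle (control) or extracellular vesicles shed by EnzaR cells that had been treated with siNC (EV-siNC), siYAP1 (EV-siYAP1) or an siRNA called CII in the labels (EV-siCII), with 1 library each. The sources used here give neither the line from which EnzaR was derived nor the vesicle dose. Nothing in the labels ties the libraries of a group to separate cultures, so each p-value measures only how these libraries spread, and that spread may be technical.

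Integrins are paired alpha and beta chains that span the plasma membrane, bind matrix proteins outside the cell and recruit talin, vinculin and other linkers inside it. Laminins are trimers of an alpha, a beta and a gamma chain, and they form the sheet of the basement membrane together with collagen IV, nidogen, perlecan and agrin. In the normal prostate, basal cells rest on this sheet through hemidesmosomes, in which the ITGA6 and ITGB4 chains are held to keratin filaments by plectin and dystonin. YAP1 carries signals from adhesion and tension into the nucleus, where it binds TEAD factors at promoters and enhancers.

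Each library held 16682669 to 18248939 counts. The siRNA target checked the labels: in CPM, counts scaled to the depth of each library, YAP1 stood at 59.5 and 49.1 with siNC, at 6.12 and 7.44 with siYAP1 and at 58.4 to 66.2 in LNCaP. NR2F2 was at 43.8 to 53.4 CPM in the 8 libraries. All 6 luminal prostate markers had counts in every library, with a summed level of 3300 to 3730 CPM in EnzaR and 1890 to 2260 CPM in LNCaP, while the basal markers TP63 and KRT5 and the leukocyte markers PTPRC and CD3E had 0 counts in all 8. KRT14, KRT15, CD68 and the endothelial marker CDH5 had at most 10 counts, and VWF had 128 to 240. The 6 fibroblast markers summed to 19.4 to 27.2 CPM in EnzaR and 104 to 121 CPM in LNCaP, most of it COL1A1. KLK3, which encodes prostate-specific antigen, was at 1158 to 1333 CPM in EnzaR and at 40.7 to 47.3 CPM in LNCaP.

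Levels of different genes were compared by the deposited FPKM, which divides fragments by the exonic length of the gene and depth, since counts grow with length. LAMB2 was the most abundant laminin chain in all 8 libraries, at 34.2 to 38.4 FPKM in EnzaR and 85.9 to 97.2 FPKM in LNCaP, and LAMC1, the main gamma chain, was at 25.9 to 35.0 and 19.3 to 21.3 FPKM. LAMA5 was the leading alpha chain, at 11.6 to 14.4 FPKM in EnzaR and 26.1 to 26.9 FPKM in LNCaP. LAMA3, the alpha chain of the epithelial laminin of hemidesmosomes, followed at 3.67 to 9.15 and 5.48 to 6.67 FPKM. LAMB3, the beta chain of that laminin, was at 0.32 to 0.60 FPKM in EnzaR and 1.27 to 1.65 FPKM in LNCaP.

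Among integrin chains ITGB1, the beta chain shared by most laminin, collagen and fibronectin receptors, was the most abundant by FPKM in 7 of 8 libraries, at 8.46 to 15.2 FPKM in EnzaR and 13.1 to 18.9 FPKM in LNCaP. ITGB5 came next in EnzaR, at 6.81 to 7.61 FPKM. In LNCaP its neighbour in the order was ITGA5, the alpha chain of the fibronectin receptor, at 13.1 to 14.8 FPKM and above ITGB1 in the control library, against 2.78 to 3.69 FPKM in EnzaR. ITGA6 and ITGAV overlapped between the lines, at 1.44 to 2.82 and 1.22 to 2.54 FPKM in EnzaR and at 2.01 to 2.64 and 1.52 to 2.71 FPKM in LNCaP. COL4A1, COL4A2 and NID1, which encode core parts of most basement membranes, stayed under 1 FPKM in all 8 libraries, with COL4A2 highest at 0.36 to 0.52 FPKM. Another collagen IV chain, COL4A5, is outside the set and was at 1.85 to 3.54 FPKM in EnzaR and 9.6 to 11.7 FPKM in LNCaP.

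**Figure D1:**
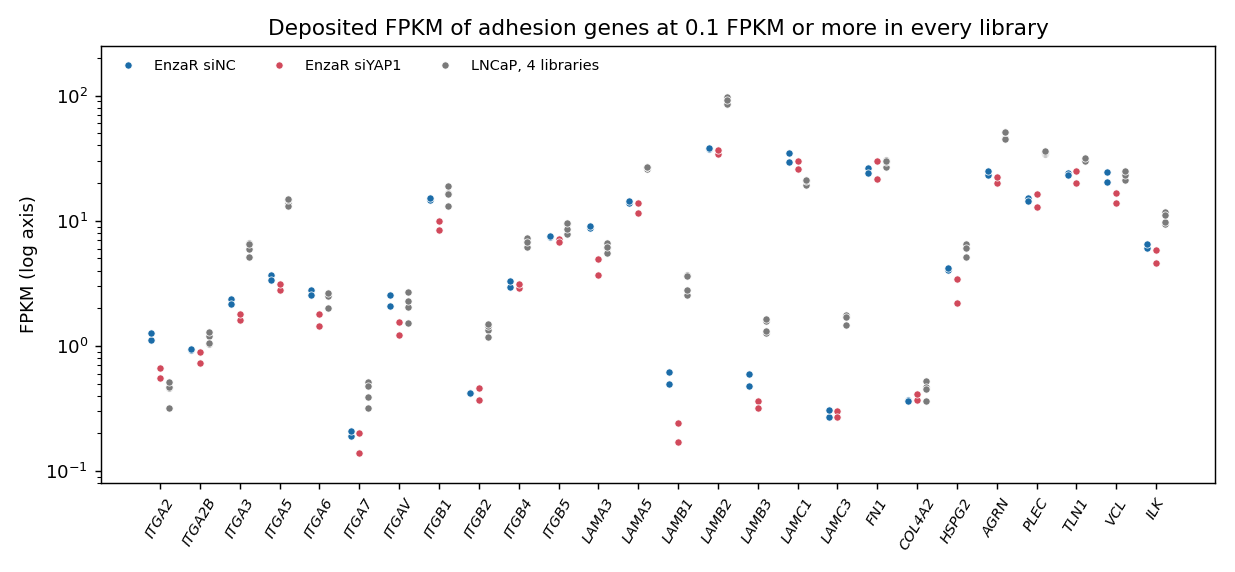
Deposited FPKM on a log axis for the 26 members with at least 0.1 FPKM in every library, with a point for each of the 8 libraries in the colour of EnzaR siNC, EnzaR siYAP1 or LNCaP. LAMB2 has the highest points, and the LNCaP points of ITGA5, at 13.1 to 14.8 FPKM, lie above its EnzaR points.

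The comparison of siYAP1 with siNC in EnzaR asks which adhesion genes depended on YAP1 in resistant cells. Of the 30 members tested, 10 fell and 0 rose: the integrin chains ITGA2, ITGA6, ITGAV and ITGB1, the laminin chains LAMA3 and LAMB1, the matrix genes TNC and HSPG2, and the linkers DST and VCL. The falls ran from 1.36-fold for VCL to 2.76-fold for TNC. The test was edgeR's quasi-likelihood test at an adjusted p of 0.05 over 14948 genes, of which 6.22% were lower and 5.83% higher. At an unadjusted p under 0.05, 11 members were lower and 0 higher, beside 4339 of the 14948 genes in either direction. By DESeq2 6 members were lower and 0 higher, with no adjusted p given for ITGA2, LAMB1 and TNC. Of all genes 1.77% were lower by DESeq2, that is 467 of 26346. That set was not filtered for low counts, so this share cannot be compared with the 6.22%. The median log2 difference of the 30 was -0.13, beside -0.03 for all genes tested. In bulk RNA, fewer cells of a kind and less RNA per cell cannot be told apart.

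Without siYAP1 replicate 1 only LAMA3 of the 10 passed, when 0.0701% of all genes passed as lower. The log2 differences of the other 9 in that fit ran from -1.14 for TNC to -0.22 for HSPG2, with ITGB1 at -0.52, ITGA2 at -0.78 and LAMB1 at -1.13. Without siNC replicate 1 there were 7 calls, when 5.34% of all genes were lower, and without siNC replicate 2 also 7, when 3.49% were. With a correction for GC content and exonic length 4 were called lower (LAMA3, LAMB1, TNC and HSPG2), when 1.33% of all genes were. All 10 kept their direction in each of these fits.

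The 9 members that were not tested had few counts. The highest count in any EnzaR library was 5 for ITGA11 and ITGB8, 4 for ITGA1, 3 for LAMA2, 2 for COL4A1 and NID1 and 1 for ITGB6, and ITGB3 and LAMA4 had 0 in all 4.

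**Figure D2:**
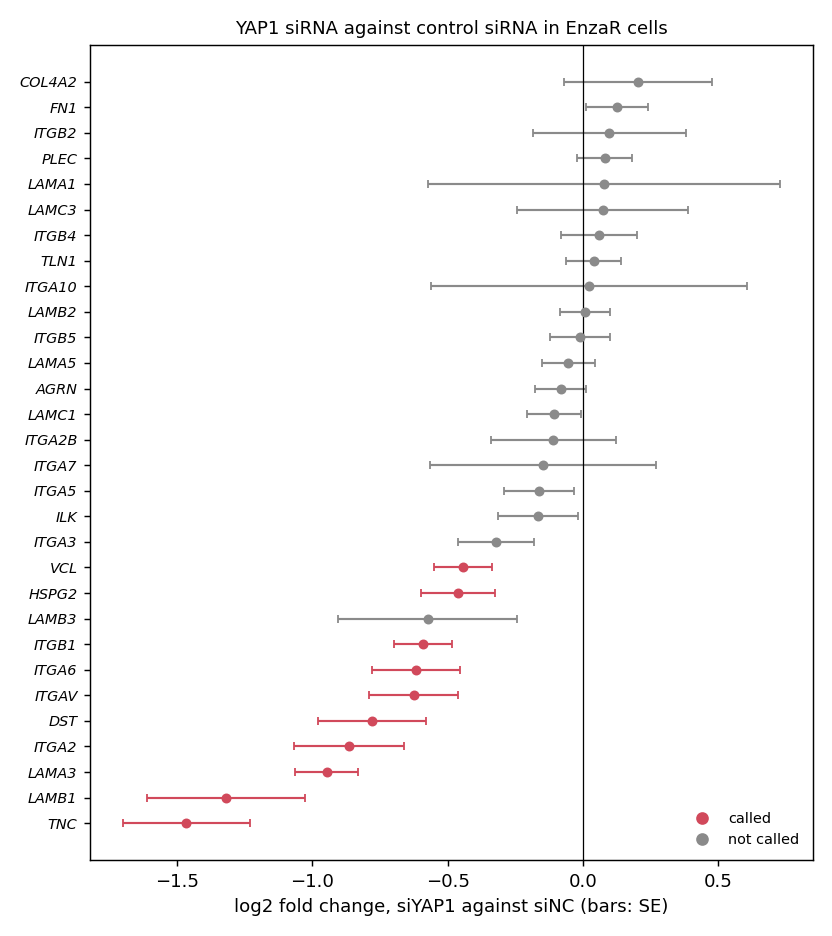
Log2 difference of siYAP1 from siNC in EnzaR cells for the 30 tested members, with bars of 1 standard error and the calls in a separate colour. All 10 called genes lie left of 0, between -1.47 for TNC and -0.44 for VCL.

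ITGB1 (chr10:33189247-33294720, hg19, minus strand) went from 88.7 and 93.9 CPM with siNC to 58.1 and 65.5 CPM with siYAP1. The log2 difference was -0.59 (SE 0.106, adjusted p 0.0026 by edgeR). 3 alpha chains that pair with it fell as well. ITGA2, the collagen-binding chain, went from 8.75 and 10.1 CPM to 4.91 and 5.61 CPM, with a log2 difference of -0.86 (SE 0.203, adjusted p 0.0128 by edgeR). ITGA6, the laminin-binding chain, went from 18.6 and 17.2 CPM to 10.8 and 12.9 CPM, a log2 difference of -0.62 (SE 0.161, adjusted p 0.0204 by edgeR). ITGAV, which binds vitronectin and fibronectin, went from 20.6 and 17.2 CPM to 11.2 and 13.7 CPM, a log2 difference of -0.62 (SE 0.164, adjusted p 0.0207 by edgeR). For each of these 4 chains both siYAP1 libraries lay below both siNC libraries. The chains were called on the same values, and the share of all genes separated in this way is not given.

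These 4 chains had the lowest GC content of the tested integrin chains, 38.3% to 42.9% of the longest transcript. Over 14547 genes the log2 difference of siYAP1 from siNC and GC content had a Spearman rho of 0.485, and over the 30 members of 0.481. With GC content and length corrected, the differences of ITGB1, ITGA2, ITGA6 and ITGAV were -0.30, -0.55, -0.38 and -0.29 and none passed. The part of GC content in the uncorrected result was not tested.

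The other integrin chains tested did not pass. ITGB4, the hemidesmosome partner of ITGA6, was at 19.7 and 22.5 CPM with siNC and at 22.04 and 22.7 CPM with siYAP1, a log2 difference of 0.06 (adjusted p 0.819 by edgeR) whose sign changed in 3 other fits. ITGA3, the other main laminin-binding chain, was at 23.1 and 21.6 CPM with siNC and at 17.6 and 18.9 CPM with siYAP1. Its log2 difference was -0.32 (adjusted p 0.134 by edgeR). ITGA5 had a log2 difference of -0.16. ITGB5 and the chains best known from platelets, muscle, cartilage and leukocytes (ITGA2B, ITGA7, ITGA10 and ITGB2) had log2 differences from -0.15 to 0.10.

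LAMA3 (chr18:21269407-21535030, hg19, plus strand) had the smallest adjusted p of the members. It was at 117 and 125 CPM with siNC and at 55.7 and 72.2 CPM with siYAP1, a log2 difference of -0.95 (SE 0.116, adjusted p 0.000112 by edgeR). It passed in every alternative fit, with log2 differences from -1.14 to -0.78. LAMB1 (chr7:107564244-107643700, hg19, minus strand), a beta chain of the laminins of embryonic and vascular basement membranes, was at 4.98 and 4.10 CPM and at 1.55 and 2.13 CPM, a log2 difference of -1.32 (SE 0.292, adjusted p 0.00922 by edgeR). Both siYAP1 libraries were below both siNC libraries for each of these chains, which were called on the same values.

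The abundant laminin chains did not pass. LAMA5, LAMB2 and LAMC1 had log2 differences between -0.11 and 0.01, with standard errors of 0.0927 to 0.0991. LAMB3 was at 2.24 and 2.83 CPM with siNC and at 1.88 and 1.59 CPM with siYAP1, a log2 difference of -0.57 (adjusted p 0.259 by edgeR). LAMA1 and LAMC3, both under 3 CPM, had log2 differences of at most 0.08.

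**Figure D3:**
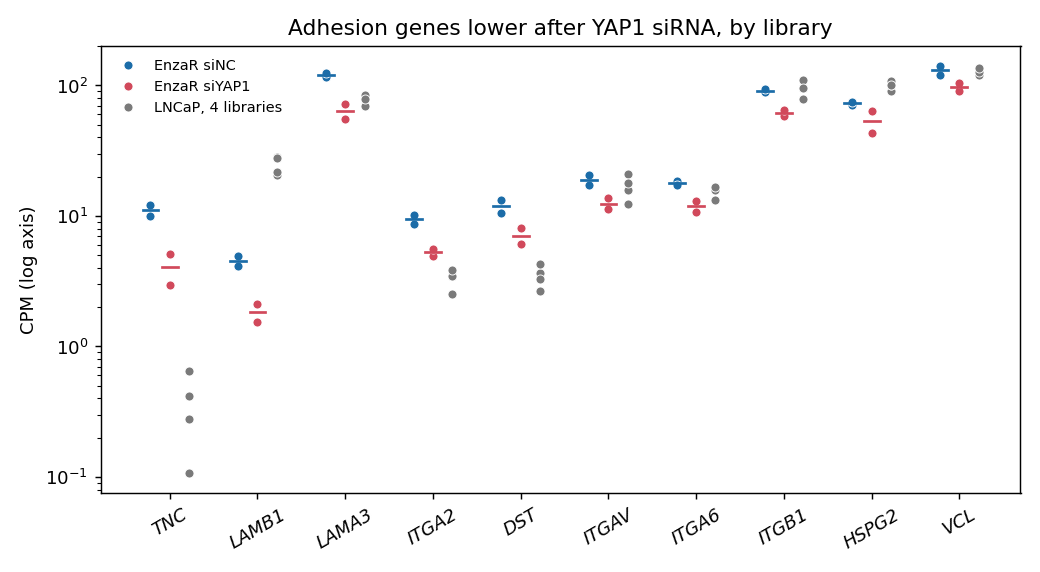
CPM on a log axis for the 10 members that fell with siYAP1, with a point for each of the 4 EnzaR and 4 LNCaP libraries and a line at the mean of each EnzaR group. For every gene, each called on these same values, both siYAP1 points lie below both siNC points. For TNC the LNCaP points lie below 1 CPM.

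TNC (chr9:117782806-117880536, hg19, minus strand), which encodes the matrix glycoprotein tenascin-C, had the largest fold of the members. It was at 12.1 and 10.0 CPM with siNC and at 2.96 and 5.14 CPM with siYAP1, a log2 difference of -1.47 (SE 0.234, adjusted p 0.00135 by edgeR). HSPG2, which encodes the heparan sulfate proteoglycan perlecan, was at 70.9 and 74.8 CPM and at 43.4 and 64.3 CPM, a log2 difference of -0.46 (SE 0.137, adjusted p 0.0347 by edgeR). Its siYAP1 libraries differed from each other by a log2 ratio of 0.57, more than the difference between the groups. Without siYAP1 replicate 1 the difference of HSPG2 was -0.22 and without siYAP1 replicate 2 it was -0.76.

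FN1, which encodes fibronectin, was at 455 and 423 CPM with siNC and at 418 and 558 CPM with siYAP1. The groups overlapped, and the log2 difference was 0.13 (SE 0.115, adjusted p 0.496 by edgeR). Without siYAP1 replicate 2 it was -0.08, and with GC content and length corrected it was 0.50 and passed as higher. In the same library, siYAP1 replicate 2, all 6 fibroblast markers had counts, against 2 of 6 in the other 3 EnzaR libraries: COL3A1 had 58 counts there and 0 in the others. The summed level of the 6 markers was 27.2 CPM in that library and 19.4 to 23.1 CPM in the other 3, and its part in the values of FN1 and HSPG2 was not tested. AGRN, which encodes agrin, and COL4A2 had log2 differences of -0.08 and 0.20 and did not pass.

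Of the 5 linkers 2 fell. DST encodes dystonin, a plakin whose epithelial form holds hemidesmosomes to keratin, and it was at 10.6 and 13.2 CPM with siNC and at 6.05 and 8.03 CPM with siYAP1. Its log2 difference was -0.78 (SE 0.199, adjusted p 0.0184 by edgeR). VCL, which encodes the actin-binding linker vinculin, was at 140.4 and 120.2 CPM and at 91.3 and 104 CPM, a log2 difference of -0.44 (SE 0.106, adjusted p 0.014 by edgeR). With GC content and length corrected the differences of DST and VCL were -0.28 and -0.28 and neither passed. ILK (integrin-linked kinase) had a log2 difference of -0.17, and PLEC (plectin) and TLN1 (talin) of 0.04 to 0.08, and none of the 3 passed.

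The siYAP1 libraries also differed from each other along the exonic length of the genes. Over 8915 genes above 10 CPM, the log2 ratio of replicate 2 to replicate 1 had a Spearman rho of 0.479 with length, and 17 of 18 members above that level were higher in replicate 2, with a median of 0.18 beside -0.01 for all genes. The median exonic length was 7898 bases for the 30 tested members and 4262 bases for all genes tested. The part of this difference in the results was not tested.

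Promoter sequences show what letters stand near the starts of the genes that fell. RefSeq windows (GRCh38.p14) from 250 bases before to 50 bases after each start were at hand for 30 of the 39 members, in 39 windows. They were searched on both strands for the TEAD core GGAATG (reverse complement CATTCC) and for the AP-1 site TGACTCA (reverse complement TGAGTCA), neither of which contains the other. The TEAD letters stood in 3 of 15 windows of the members that fell (20%), in 2 of 16 windows of the tested members that did not pass (12.5%) and in 14% of all 35116 windows. The AP-1 letters stood in 2 of 15 windows (13.3%), in 2 of 16 (12.5%) and in 4.95%. The stretches below are from ITGB1, VCL, DST and LAMA3, with the matched letters in capitals and the strand of the gene shown.
ITGB1, chr10:32958392-32958427, minus strand, match from -182: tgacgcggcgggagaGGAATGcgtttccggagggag
VCL, chr10:73997930-73997965, plus strand, match from -171: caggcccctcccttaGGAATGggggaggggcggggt
DST, chr6:56955059-56955080, minus strand, match from -249: cCATTCCcgccccccgcaggct
LAMA3, chr18:23872880-23872916, plus strand, match from -125: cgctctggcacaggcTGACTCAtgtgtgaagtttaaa
LAMA3, chr18:23872936-23872972, plus strand, match from -69: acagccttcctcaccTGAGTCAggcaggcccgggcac
A match is a description of the letters, and gene counts do not show which start was used. LAMA3 carried the AP-1 letters at 2 places in the same window and no TEAD letters, ITGB1 and VCL carried the TEAD letters alone, and DST carried both kinds, the AP-1 letters after its start.

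Other genes of the adhesion pathway were read from lists outside the 39. Each list stands beside 6.22% of all genes lower and 5.83% higher with siYAP1. None of 4 tested further integrin or laminin chains passed by edgeR, with 1 at an unadjusted p under 0.05. Among further basement membrane genes 2 of 6 tested fell and 0 rose: COL4A5, a collagen IV chain, by 0.60 and FRAS1, an epithelial basement membrane protein, by 0.67 on the log2 scale. FRAS1 went from 26.6 and 25.3 CPM to 13.8 and 19.3 CPM. Among 18 further focal adhesion linkers PARVB, a partner of ILK, rose with a log2 difference of 0.49, and TNS1, a tensin, fell by 1.01. TNS1 did not pass with DESeq2 size factors, with GC content and length corrected or without either siNC replicate, and it was at -0.61 without siYAP1 replicate 1, where it did not pass, and at -1.65 without siYAP1 replicate 2. Among 10 further laminin and matrix receptors, SDC4, a syndecan of focal adhesions, fell from 75.1 and 72.3 CPM to 39.9 and 45.6 CPM, a log2 difference of -0.81 (adjusted p 0.00039 by edgeR). UTRN (utrophin) fell by 0.39, but it was at -0.05 and did not pass with GC content and length corrected, nor did it pass without either siNC replicate. The tetraspanins CD151 and CD81, which associate with laminin-binding integrins, rose with log2 differences of 0.38 and 0.39. Neither passed with library totals (0.28 for both), with GC content and length corrected (0.24 and 0.26) or without siNC replicate 1 (0.31 for both), and CD81 did not pass with the replicate number as a block (0.38). Without siYAP1 replicate 1 none of these 8 genes passed.

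The comparison of EnzaR siNC with LNCaP control shows how the resistant line differs from the sensitive one. 9 members were lower in EnzaR: the laminin chains LAMC3, LAMB1, LAMA1, LAMB3 and LAMB2, the integrin chains ITGA5, ITGB2 and ITGA3, and PLEC. 3 were higher: TNC, DST and ITGA2. 31 members were tested by edgeR at an adjusted p of 0.05 and a difference of at least 2-fold, over 17537 genes, of which 16.8% were lower and 17.4% higher in EnzaR. The median log2 difference of the 31 was -0.54, beside -0.002 for all genes tested. With GC content and length corrected the medians were -0.10 and 0.10. The LNCaP control is 1 library and was assumed to vary like the EnzaR libraries, and the line, the drug in the medium and the transfection cannot be told apart.

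With GC content and length corrected 3 members were lower (ITGA5, LAMB1 and LAMC3) and 4 higher (TNC, DST, ITGA2 and LAMA3), when 14.4% of all genes were lower and 15.4% higher. All 12 calls kept their direction under that correction. Over 16988 genes Spearman's rho between GC content and the log2 difference of the lines was -0.401, and over the 31 members -0.511; its part in the uncorrected calls was not tested. Luminal and fibroblast markers differed between the lines as given above, and their part was not tested.

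TNC showed the widest gap between the lines. Its counts were 5, 8, 2 and 12 in the LNCaP control, EV-siNC, EV-siYAP1 and EV-siCII libraries, that is 0.11 to 0.65 CPM, and it was at 2.96 to 12.1 CPM in the 4 EnzaR libraries, siYAP1 included. The log2 difference was 5.26 (SE 0.523, adjusted p 2.85e-09 by edgeR), and with so few LNCaP counts its size is imprecise. DST was at 2.68 to 4.30 CPM in LNCaP and at 6.05 to 13.2 CPM in EnzaR, with a log2 difference of 2.13 (SE 0.307, adjusted p 1.34e-06 by edgeR). ITGA2 was at 2.52 to 3.85 CPM in LNCaP and at 4.91 to 10.1 CPM in EnzaR, with a log2 difference of 1.89 (SE 0.308, adjusted p 8.38e-06 by edgeR). In the siYAP1 libraries these genes were still above every LNCaP library, at 2.96 and 5.14 CPM for TNC, 6.05 and 8.03 CPM for DST and 4.91 and 5.61 CPM for ITGA2. The siNC libraries enter both comparisons, so a high value there adds to both.

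Among integrin chains lower in EnzaR, ITGA5 (chr12:54789045-54813244, hg19, minus strand) was at 27.6 and 25.9 CPM with siNC against 93.3 to 107 CPM in LNCaP. The log2 difference was -1.97 (SE 0.126, adjusted p 6.68e-13 by edgeR). ITGA3 was at 23.1 and 21.6 CPM against 47.2 to 64.3 CPM, a log2 difference of -1.53 that was -0.69 and under 2-fold with GC content and length corrected. ITGB2, the beta chain of leukocyte integrins, was at 2.79 and 2.88 CPM against 7.53 to 9.64 CPM, a log2 difference of -1.68, corrected -0.98 and under 2-fold. The leukocyte markers PTPRC and CD3E were at 0 in every library. CD68, also a leukocyte marker, was at 0.0591 to 0.277 CPM in EnzaR and at 0.271 to 0.525 CPM in LNCaP. The part of leukocyte RNA in the ITGB2 difference was not tested. ITGB4 was at 19.7 and 22.5 CPM against 41.6 to 46.1 CPM, with a log2 difference of -0.99 that lay just inside 2-fold.

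The ITGB1, ITGA6 and ITGAV chains did not reach 2-fold between the lines. ITGB1 was at 88.7 and 93.9 CPM with siNC against 79.5 to 109.5 CPM in LNCaP, a log2 difference of 0.19 (adjusted p 0.207 by edgeR). ITGA6 had a log2 difference of 0.42 (adjusted p 0.0715 by edgeR) and ITGAV of 0.61 (adjusted p 0.0118 by edgeR, under 2-fold). These 3 directions turned negative with GC content and length corrected (-0.46, -0.01 and -0.11) and with all 4 libraries of each line compared (-0.34, -0.08 and -0.12). The EnzaR side of that last fit included the siYAP1 libraries, in which these 3 chains were called lower. It therefore mixes the siYAP1 difference with the line difference.

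Laminin chains gave 5 of the 9 lower calls. LAMB1 was at 4.98 and 4.10 CPM with siNC against 20.6 to 28.6 CPM in LNCaP, a log2 difference of -2.19 (SE 0.209, adjusted p 1.34e-09 by edgeR). LAMC3 was at 2.02 and 2.38 CPM against 10.96 to 12.8 CPM, a log2 difference of -2.32 (SE 0.263, adjusted p 2.8e-08 by edgeR). LAMB2, the most abundant chain, was at 254 and 267 CPM against 557 to 629 CPM, a log2 difference of -1.17 (SE 0.11, adjusted p 1.06e-09 by edgeR). For these 3 chains no EnzaR library reached the lowest LNCaP library. The same held for LAMB3, LAMA1, LAMA5, PLEC, AGRN, TLN1 and ILK, and the share of all genes separated in this way is not given. Outside the laminins it also held for ITGA3, ITGA5, ITGB2, ITGB4 and HSPG2, among others. It held even for ITGA2B, whose log2 difference of -0.14 did not pass. LAMB3 was at 2.24 and 2.83 CPM against 5.62 to 7.36 CPM, a log2 difference of -1.53. LAMA1 was at 0.22 and 0.83 CPM against 1.24 to 2.00 CPM, a log2 difference of -1.90, and it did not pass without siNC replicate 1 (-1.24), by DESeq2 or with GC content and length corrected, and it was at -3.13 without siNC replicate 2. Under that correction LAMB2 and LAMB3 were at -0.46 and -0.97 and under 2-fold, while LAMB1 and LAMC3 kept their calls at -1.92 and -1.42.

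LAMC1 and LAMA3 went the other way without reaching 2-fold. LAMC1 was at 290.2 and 253 CPM with siNC against 160.3 to 170.1 CPM in LNCaP, a log2 difference of 0.75 (adjusted p 1.28e-05 by edgeR). LAMA3 was at 117 and 125 CPM against 69.9 to 85.1 CPM, a log2 difference of 0.58 (adjusted p 0.000975 by edgeR). With siYAP1, LAMA3 in EnzaR was at 55.7 and 72.2 CPM, a range that reached the LNCaP values.

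PLEC was at 254 and 249 CPM with siNC against 562 to 587 CPM in LNCaP, a log2 difference of -1.20 (SE 0.12, adjusted p 3.16e-09 by edgeR). With GC content and length corrected it was at -0.02 and did not pass. AGRN, ILK and LAMA5 were lower by less than 2-fold, with log2 differences of -0.94, -0.90 and -0.88. Corrected for GC content and length, AGRN and LAMA5 were at 0.19 and 0.25. TLN1 and ITGB5, lower by 0.38 and 0.33, were at 0.29 and 0.16 under that correction. FN1 and HSPG2 had log2 differences of -0.07 and -0.32 and did not pass, and corrected HSPG2 was at 0.78.

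**Figure D4:**
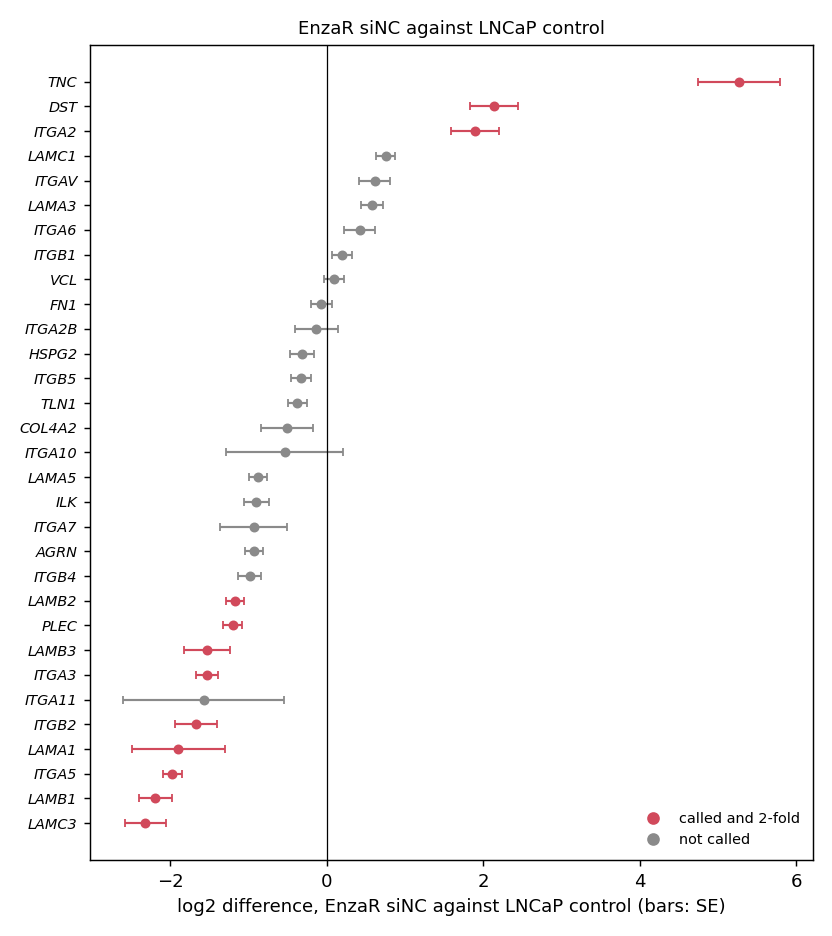
Log2 difference of EnzaR siNC from LNCaP control for the 31 tested members, with bars of 1 standard error and the calls past 2-fold in a separate colour. TNC stands apart at 5.26, and the 9 lower calls lie between -2.32 for LAMC3 and -1.17 for LAMB2.

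Outside the 39 genes, 6 of 10 tested basement membrane genes were lower in EnzaR and 1, FRAS1, was higher by 2.54 on the log2 scale. Each list here stands beside 16.8% of all genes lower and 17.4% higher. PXDN, the peroxidasin that crosslinks collagen IV, was at 2.13 and 1.33 CPM with siNC against 70.5 to 76.1 CPM in LNCaP, a log2 difference of -5.46 (adjusted p 5.07e-18 by edgeR). NTN4, a laminin-related netrin, had 0 counts in all EnzaR libraries and 9 to 20 in LNCaP. COL4A4 had 2 and 0 counts in the siNC libraries and 8 to 12 in LNCaP. COL18A1 and COL4A5 had more counts and were also lower, with log2 differences of -2.705 and -1.513 (adjusted p 1.32e-15 and 3.08e-10 by edgeR). Their values in the other fits are not given here. Of 19 linkers 4 were lower, led by TNS3, LIMS2 and PXN with log2 differences of -2.76, -2.56 and -1.64, and FERMT1, a kindlin, was higher by 1.02. Of 10 receptors 3 were lower and 2 higher. BCAM, a receptor of laminin alpha-5 chains, was at 36.9 and 42.5 CPM against 319.6 to 349.7 CPM, a log2 difference of -3.15 (adjusted p 3.63e-17 by edgeR), CD151 and DDR1 were lower by 1.43 and 1.04, and SDC2 and UTRN were higher by 2.03 and 1.30. ITGB7, with a log2 difference of -1.02, was the only call among 6 further integrin or laminin chains, and it did not pass by DESeq2, with the correction (-0.45), without siNC replicate 1 (-0.70) or with 4 libraries of each line (-0.85). With GC content and length corrected PXN, CD151 and DDR1 were at -0.92, -0.72 and -0.20 and under 2-fold. FERMT1 was under 2-fold by DESeq2, with its size factors, without siNC replicate 1 (0.79) and with 4 libraries of each line, where UTRN was too (0.82), COL4A4 did not pass without siNC replicate 2, and NTN4 did not pass by DESeq2. The fit with 4 libraries of each line takes in the siYAP1 libraries, in which UTRN was called lower.

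The vesicle comparisons ask what material from EnzaR cells did to adhesion genes of LNCaP. In each comparison 20 of the 39 members reached 10 CPM in either library, and 0 of the 20 differed by 1.5-fold in either direction. Of all genes above that level, 2.53% were higher and 0.258% lower in EV-siNC than in control, 0.333% and 0.366% in EV-siYAP1 than in EV-siNC, and 0.0671% and 0.38% in EV-siCII than in EV-siNC. With 1 library per group there is no replicate check and no test, and the 95% intervals given cover counting error only. Between EnzaR libraries of the same group, 0.704% were higher and 0.173% lower for siNC, and 0.632% and 0.177% for siYAP1.

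The largest ratios of EV-siNC to control were among integrin chains and ILK. ITGA3 was at 64.3 CPM in control and 47.2 CPM in EV-siNC, a log2 ratio of -0.44 (interval -0.57 to -0.32). ILK was at 40.3 and 31.0 CPM, a log2 ratio of -0.38 (interval -0.54 to -0.22), and ITGB5 at 60.6 and 47.7 CPM, a log2 ratio of -0.34 (interval -0.47 to -0.22). ITGAV went the other way, from 12.3 to 15.9 CPM, a log2 ratio of 0.37 (interval 0.12 to 0.63). Over 8815 genes Spearman's rho of this ratio was -0.54 with GC content and 0.361 with length. With those removed, ITGAV was at 0.02, while ITGA3, ILK and ITGB5 were at -0.38, -0.25 and -0.26.

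Against EV-siNC, the EV-siYAP1 library had LAMB1 at 28.6 against 21.5 CPM, a log2 ratio of 0.41 (interval 0.22 to 0.60). ITGAV was at 21.0 against 15.9 CPM, a log2 ratio of 0.40 (interval 0.18 to 0.62), and ITGA3 at 55.1 against 47.2 CPM, a log2 ratio of 0.22 (interval 0.09 to 0.35). LAMA3 was lower, at 69.9 against 85.1 CPM, a log2 ratio of -0.28 (interval -0.39 to -0.18). None of these reached 1.5-fold. YAP1 itself was at 61.5 CPM in EV-siYAP1 and 66.2 CPM in EV-siNC.

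In EV-siCII against EV-siNC the 4 largest ratios were all above 0. LAMB1 was at 28.1 against 21.5 CPM, a log2 ratio of 0.38 (interval 0.19 to 0.57), and ITGA3 at 61.0 against 47.2 CPM, a log2 ratio of 0.37 (interval 0.24 to 0.50). ITGB5 was at 58.4 against 47.7 CPM, a log2 ratio of 0.29 (interval 0.16 to 0.42), and ILK at 36.7 against 31.0 CPM, a log2 ratio of 0.24 (interval 0.08 to 0.41). The 3 vesicle comparisons share the EV-siNC library, so a low or high value there enters each of them. TNC, the member that separated the lines most, stayed at 2 to 12 counts in all 4 LNCaP libraries and was under the 10 CPM level.

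**Figure D5:**
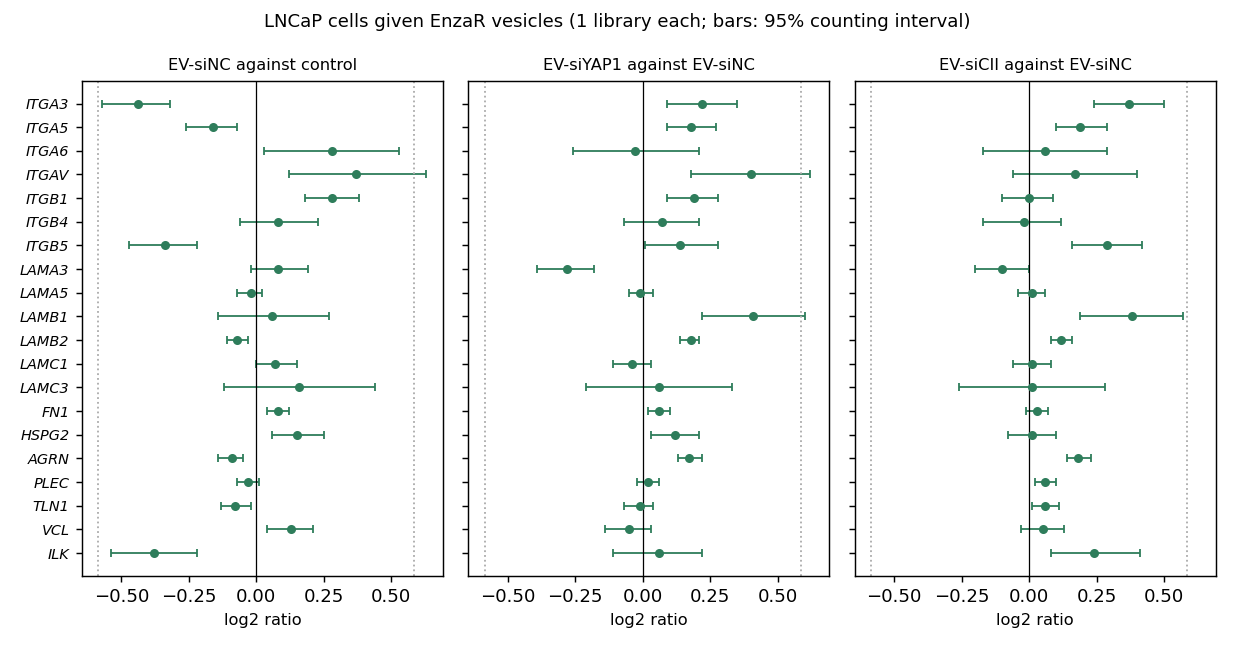
Log2 ratios for the 20 members above 10 CPM in the 3 vesicle comparisons of LNCaP libraries, with bars for the 95% interval of counting error and dotted lines at 1.5-fold. No point lies outside the dotted lines, and the point farthest from 0 is ITGA3 at -0.44 in EV-siNC against control.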

How the data were processed

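RNA-seq was made from 4 EnzaR and 4 LNCaP libraries. The authors deposited a table of raw counts and of FPKM values per gene and library, per the file headers. The builds hg19 and GRCh37 and the tools HISAT2 2.0.1, HTSeq 0.6.1, cutadapt 1.9.1 and DESeq2 are listed, with no role, in the submitters' processing notes. Which annotation release and strand setting were counted is not given in the sources used here. Reads of overlapping and antisense genes may therefore not be separated.

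Symbols were matched to Ensembl identifiers for 51996 genes, which held 99.24% of counts. The members, the other lists and the tests were chosen with earlier results of these data known. Genes given with values per library were those called with siYAP1, the 12 with the largest difference past the call between the lines, ITGB1, ITGB4, ITGA6 and ITGAV, the 4 largest ratios in each vesicle comparison, and up to 3 called genes per direction from each other list.

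Counts were fitted with edgeR 4.0.16 (R 4.3.3; TMM scaling, filterByExpr, robust quasi-likelihood test, Benjamini-Hochberg adjustment over all genes tested), which was also tested on simulated data. The siYAP1 comparison used the 4 EnzaR libraries and the line comparison all 8. Vesicle ratios used TMM-scaled CPM with a prior count of 2 and exact binomial 95% intervals. CPM values are scaled over all 8 libraries. Deposited FPKM served only to compare levels between genes. Alternatives were other scalings, DESeq2 1.42.0, no filter, a replicate block, other library sets, each EnzaR replicate left out, and an offset for GC content (longest transcript of GENCODE, through mgcv 1.9.3) and exonic length. The marker PECAM1 was not matched.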

Additional observations from a re-analysis of the deposited data

How the results depend on the processing

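The 10 members lower with siYAP1 stayed 10 under DESeq2 size factors, library totals, no filter and a fit over all 8 libraries. DESeq2 called 6, gave no adjusted p for ITGA2, LAMB1 and TNC, and lost HSPG2. The GC and length correction called 4 lower and 1 higher (FN1), and leaving out a replicate gave 1 to 10. FN1, at 0.13, ran from -0.085 to 0.311 with a replicate left out, the lower value without siYAP1 replicate 2. ITGB4, at 0.06, ran from -0.038 to 0.164 and was at -0.044 with library totals and -0.057 with the correction. The siNC and siYAP1 libraries share only replicate numbers: the deviations of those numbered alike had a correlation of -0.08 over 14948 genes, and with the replicate block 10 members were lower and 0 higher, while 5.65% of all genes were lower and 3.77% higher. Calls over all genes moved more. Library totals made 1416 lower and 291 higher (17% of calls higher, beside 48.4%), with the median of all genes at -0.13 in place of -0.03, and without siYAP1 replicate 1 there were 11 lower and 15 higher of 15683 tested. Between the lines, members lower went from 9 to 3 with the GC and length correction, and were 8 to 10 without a siNC replicate. Under that correction AGRN was at 0.191, HSPG2 0.777, ITGA6 -0.009, ITGAV -0.106, ITGB1 -0.462, ITGB5 0.163, LAMA5 0.252 and TLN1 0.286. With 4 libraries of each line, the siYAP1 libraries included, ITGA6, ITGAV and ITGB1 were at -0.080, -0.120 and -0.340. In these cases the cause was not tested. With the level lowered to 3 CPM, 1 member passed 1.5-fold in EV-siYAP1 against EV-siNC: ITGA7, at 3.06 against 1.94 CPM. Of 20 members not called with siYAP1, 14 changed sign in some fit, all with a log2 difference between -0.15 and 0.13. Depth limits ITGA1, ITGB3, ITGB6, ITGB8, LAMA2, LAMA4, COL4A1 and NID1, which had at most 8 counts in any library.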
